A study of Homo sapiens with 3 samples.

Results

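The genes described here were 39 human genes of homologous recombination, the Fanconi anaemia pathway and the DNA damage checkpoint, together with PARP1. They were chosen by function and matched by symbol, and all 39 were found among the 17448 genes of the deposited table. With a minimum of 10 estimated reads in at least 1 library, 14031 genes were compared, and all 39 were among them. Their RNA levels were measured in H128, an established human small cell lung cancer (SCLC) cell line, 48 h after transfection with a control siRNA (siCont) or with an siRNA against ESRRG, the gene of estrogen-related receptor γ (ERRγ). The ESRRG siRNA libraries were labelled siERRG2 and siERRG3, and the sources used here do not settle which of the siESRRG sequences each received. Each condition was 1 library of 1 cell line, and both ESRRG siRNA libraries were set against the same siCont library. Differences therefore had no replicate check, no test was made, and every interval below covers counting error only and compares libraries, not conditions.

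Homologous recombination repairs broken DNA with an intact sister copy as the template. BRCA1 and its partners act on the broken ends, BRCA2 acts on the resulting single strand, and strand exchange proteins such as those of the RAD54 family help it to pair with its template. The Fanconi pathway unhooks crosslinks between DNA strands such as those left by cisplatin, a standard drug in SCLC. ATM and ATR are kinases that signal breaks and stalled replication forks and hold the cell cycle. Many of these genes are transcribed most in cycling cells.

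The 3 libraries held 19861937 to 20016780 counts, and TMM scaling factors lay between 0.994 and 1.003. ESRRG had 806 counts in siCont, against 211 in siERRG2 and 230 in siERRG3, a log2 difference of -1.94 (95% interval of the count ratio 0.221 to 0.302) and -1.82 (0.241 to 0.325). The neuroendocrine markers NEUROD1, INSM1, CHGA, SYP and NCAM1 lay between 54.8 and 183 FPKM and DLL3 between 8.42 and 12.5, where FPKM is a count adjusted for the length of the transcript and the size of the library. These markers also differed between libraries, with INSM1 at 183 FPKM in siCont and 93.3 in siERRG2, and NEUROD1 at 123 in siCont and 67.3 in siERRG3. The 12 epithelial, leukocyte, fibroblast and endothelial markers summed to 4027 counts in siCont, against 4930 in siERRG2 and 3635 in siERRG3. Most came from COL1A2 and CDH5, and the remaining 10 summed to 411 to 545. Of these 10, the epithelial genes KRT8, KRT18 and EPCAM were at 3.14 to 4.87, 1.55 to 2.78 and 0.38 to 0.53 FPKM. The fibroblast genes COL1A1 and PDGFRB were at 1.18 to 1.75 and 0.03 to 0.04 FPKM. The leukocyte genes PTPRC, CD3E and CD68 were at no more than 1.57 FPKM. The endothelial genes PECAM1 and VWF were at 0.16 to 0.25 and 0 to 0.01 FPKM. COL1A2, a fibroblast marker, had 2043 to 2896 counts, or 18.8 to 26.6 FPKM. CDH5, an endothelial marker, had 1456 counts in siCont, against 1623 in siERRG2 and 585 in siERRG3, or 17.6, 19.6 and 7.06 FPKM. In FPKM, COL1A2 in every library and CDH5 in siCont and siERRG2 were above the neuroendocrine marker DLL3. The part of COL1A2 and CDH5 in the results below was not tested. As these were bulk libraries, fewer cells in a given state and less RNA per cell cannot be told apart.

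The promoters of the 39 genes were read for letters that nuclear receptors of the ERR family or cell cycle factors are known to bind. RefSeq (GRCh38.p14) gave promoter windows, 250 bases before to 50 bases after an annotated start, for 35 of the 39 genes. The full ERR response element, TCAAGGTCA on either strand, was in 0 of the 35 genes and in 0.299% of 13693 genes with a window. The shorter core AAGGTCA on either strand, which is contained in the full element, was in 3 of the 35 (8.57%), against 4.05% of all genes. The matches are shown because ESRRG was the targeted gene, read along the strand of the gene with the match in capitals. In ATM and BRCA1 the core is on the opposite strand, so that the capitals read TGACCTT:
ATM: tgatactacttTGACCTTccgagtgcagt
BRCA1: ggtggcgattcTGACCTTggtacagcaat
CLSPN: ggcaagtgtcaAAGGTCAaagaccacggc
The ATM match (chr11:108223157-108223185, plus strand) began at position -157 from the start and was in 1 of its 2 windows. The BRCA1 match (chr17:43170485-43170513, minus strand) began at position -175 of a start that lies upstream of the gene's extent in the table, which ends at 43125497. The CLSPN match (chr1:35770196-35770224, minus strand) began at position -235. An E2F element, TTTCGCGC or TTTGGCGC on either strand, was in 2 of the 35 genes (5.71%) against 2.19% of all genes. Both are shown because E2F factors drive replication genes in S phase, with the match in capitals, here on the strand opposite to the element:
FANCC: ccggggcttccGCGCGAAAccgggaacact
TOPBP1: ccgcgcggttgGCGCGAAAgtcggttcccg
The FANCC match (chr9:95317863-95317892, minus strand) began at position -172 and the TOPBP1 match (chr3:133661930-133661959, minus strand) at position -7. The CHR element TTTGAA was in 3 of the 35 genes (8.57%; ATM, BRIP1 and FANCC) against 15% of all genes, and the CCAAT box in 16 (45.7%) against 42.3%. A match is a description of letters and not a binding site, and genes without a match may be bound elsewhere.

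All 39 genes were detected in every library, at levels that spread over a wide range per length. PARP1, the enzyme that marks DNA breaks with poly(ADP-ribose), stood far above the rest at 142 FPKM in siCont, against 137 in siERRG2 and 140 in siERRG3, and ranked 516 of 17448 genes in siCont. FANCI, RBBP8, RAD51C and CHEK2 followed at 30.1 to 39.1 FPKM in siCont. The lowest were BRCA2, at 1.46, 1.49 and 1.08 FPKM in siCont, siERRG2 and siERRG3, and FANCB, at 1.41, 1.94 and 1.42, which changed places between libraries. The median of the 39 was 10.0 FPKM in siCont, against 9.57 in siERRG2 and 10.7 in siERRG3, against 4.39, 4.34 and 4.26 over all genes of the table. With 1 library per condition, the order of neighbouring genes in these levels has no replicate spread to be read against.

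**Figure D1:**
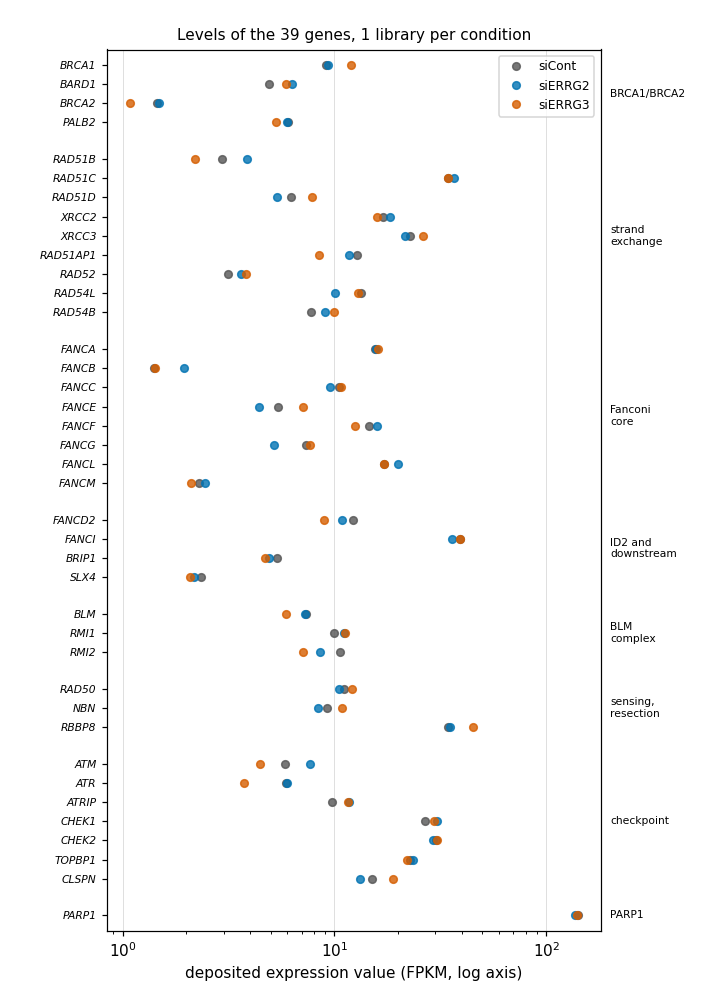
Deposited expression value in FPKM (log axis) of each of the 39 genes, grouped by role, with 1 point per library (siCont, siERRG2, siERRG3). PARP1 lies apart on the right at 137 to 142 FPKM, and BRCA2 and FANCB lie on the left at 1.08 to 1.94 FPKM.

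As a group the 39 genes were centred close to no difference, with members on both sides. The call was a 1.2-fold difference of scaled counts, in either direction. In siERRG2 against siCont, 4 of 39 genes were lower (10.3%; all genes 19.2%) and 3 were higher (7.69%; all genes 16.4%). All 7 also had an interval of the count ratio that did not include 1, a stricter rule met by 12.8% of all genes for lower and 10.2% for higher. In siERRG3 against siCont, 7 genes were lower (17.9%; all genes 25.1%) and 8 were higher (20.5%; all genes 23.2%). Under the stricter rule 6 were lower (15.4%; all genes 19.9%) and 8 were higher (20.5%; all genes 17.1%). Among the 11369 genes that averaged 50 or more counts over the libraries, the shares were 15.5% lower and 12.8% higher in siERRG2, and 24.3% lower and 19.4% higher in siERRG3. With 39 genes, 1 gene is 2.56% of the list, and the gaps under the interval rule amount to a few genes at most and were not tested.

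The median log2 difference of the 39 genes was -0.0089 in siERRG2 and -0.0047 in siERRG3, against -0.00038 and -0.0033 over all genes tested. The median size of the difference, regardless of sign, was 0.12 in siERRG2 and 0.21 in siERRG3, against 0.18 and 0.25 over all genes. In each comparison with siCont, 20 of the 39 genes lay below 0. The signs of these medians turn with the scaling (total counts gave 0.0048 in siERRG2 and 0.0084 in siERRG3), so they mark no direction.

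**Figure D2:**
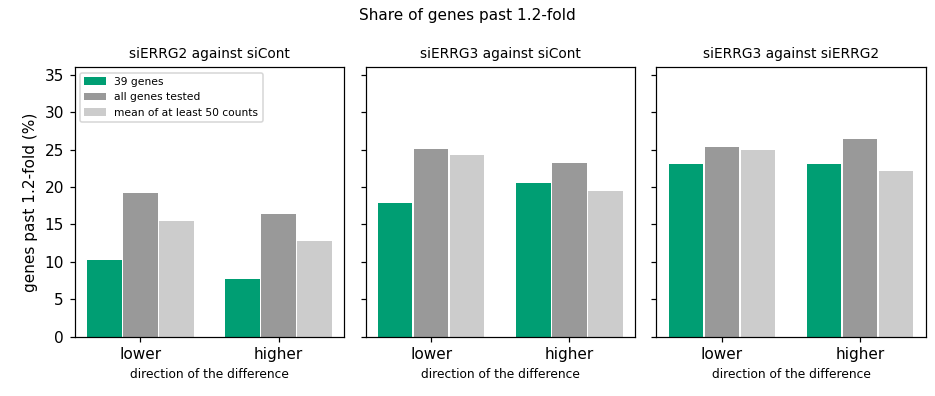
Share of genes past 1.2-fold (%), lower and higher, in each pair of libraries, for the 39 genes, all 14031 genes tested and the 11369 genes averaging 50 or more counts. The bars of the 39 genes in siERRG2 against siCont, 10.3% and 7.69%, are under those of all genes, 19.2% and 16.4%.

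Genes that sense and trim broken ends were near the control in siERRG2, and 2 of the 3 were higher in siERRG3 (all genes 23.2%). RBBP8 (CtIP, chr18:22881113-23026616), which starts the resection of broken ends, had 2244 counts in siCont, against 2303 in siERRG2 and 2952 in siERRG3. Its siERRG3 library stood above the other two, by 0.37 on the log2 scale against siCont (ratio interval 1.22 to 1.37), and the medians of this group were 0.02 in siERRG2 and 0.32 in siERRG3, the latter being the value of NBN. NBN, a subunit of the MRN complex that recognises breaks, had 721, 754 and 916 counts in the same order and was also called higher in siERRG3. On the scale of log2(FPKM + 0.1) NBN was at -0.14 in siERRG2 and 0.23 in siERRG3, which is within 1.2-fold. RAD50, the subunit that holds the ends together, had 1472, 1400 and 1612 counts and passed 1.2-fold in neither comparison.

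The BRCA1 and BRCA2 group of 4 genes did not move as a block. BRCA1 (chr17:43033086-43125497), a ubiquitin ligase that promotes recombination, had 1051 counts in siCont, against 1068 in siERRG2 and 1302 in siERRG3. It was level in siERRG2, with a log2 difference of 0.01 (ratio interval 0.922 to 1.09), and higher in siERRG3, with 0.28 (1.12 to 1.32). BARD1 (chr2:214725645-214809711), the obligate partner of BRCA1 in that ligase, had 517, 665 and 629 counts. BARD1 was higher in siERRG2 by 0.35 (1.13 to 1.43) and lay just under the 1.2-fold limit in siERRG3. BRCA2 (chr13:32315470-32400242), which acts on the resected single strand, had 335 counts in siCont and 342 in siERRG2 and only 251 in siERRG3. The log2 difference of BRCA2 was 0.01 in siERRG2 (0.866 to 1.18) and -0.44 in siERRG3 (0.623 to 0.870), so that BRCA1 and BRCA2 lay on opposite sides of siCont in the siERRG3 library. PALB2, which links BRCA1 to BRCA2, had 497, 483 and 437 counts and was called in neither.

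Among the 9 strand exchange genes, 1 was lower and 1 higher in siERRG2 (all genes 19.2% and 16.4%). In siERRG3, 2 were lower and 3 higher (all genes 25.1% and 23.2%). RAD51AP1 (chr12:4538784-4586125), which stimulates the pairing of strands, had 569 counts in siCont, against 522 in siERRG2 and 379 in siERRG3. Its log2 difference in siERRG3, -0.61 (ratio interval 0.574 to 0.747), was exceeded in size only by that of ATR among the 39 genes and both comparisons with siCont. RAD54L (chr1:46228410-46316777), a motor protein that remodels the joined strands, had 829, 632 and 788 counts and was lower in siERRG2, with a log2 difference of -0.41 (0.678 to 0.837), and not called in siERRG3. Its relative RAD54B went the other way, with 548, 623 and 717 counts and a log2 difference of 0.36 in siERRG3 (1.15 to 1.44). RAD52, which anneals single strands, had 204, 235 and 260 counts and was higher in siERRG3 by 0.32 (1.04 to 1.51).

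RAD51B, a subunit of the BCDX2 complex, had 111 counts in siCont, against 155 in siERRG2 and 86 in siERRG3. It was higher in siERRG2 by 0.46 (ratio interval 1.07 to 1.78), while its lower count in siERRG3 had an interval that included 1. RAD51C and XRCC2, subunits of the same complex, also had their highest count in siERRG2 and their lowest in siERRG3, within 1.2-fold. RAD51C, which is in the CX3 complex too, had 842, 886 and 822 counts, and XRCC2 had 1045, 1123 and 984. RAD51D, the remaining subunit, ran the other way, with 287, 253 and 365 counts, and was called higher in siERRG3. XRCC3, the partner of RAD51C in CX3, had 1188, 1131 and 1366 counts and was not called against siCont.

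**Figure D3:**
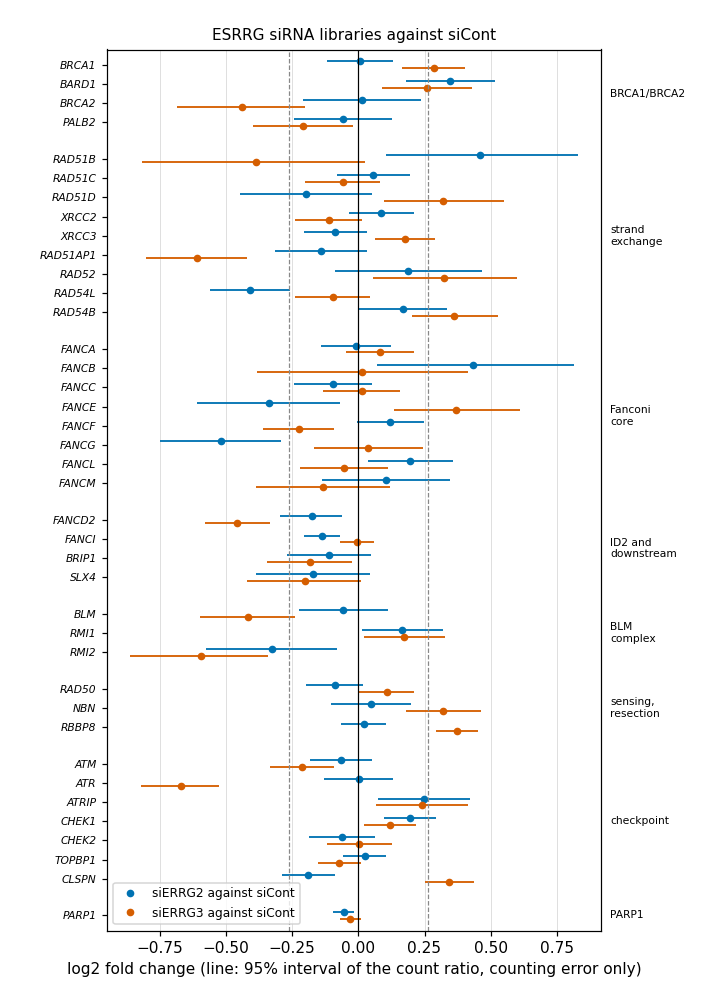
Log2 difference from siCont of each of the 39 genes in siERRG2 and in siERRG3, with lines for the 95% interval of the count ratio (counting error only) and dashed lines at 1.2-fold. ATR, RAD51AP1 and RMI2 lie farthest to the left in siERRG3, at -0.67, -0.61 and -0.59, and FANCG in siERRG2, at -0.52.

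The Fanconi core complex, the ubiquitin ligase that tags FANCD2 and FANCI at crosslinks, held 8 of the genes. In siERRG2, 2 were lower and 1 was higher (all genes 19.2% and 16.4%). In siERRG3, 0 were lower and 1 was higher (all genes 25.1% and 23.2%). FANCG (chr9:35073838-35080193), an adaptor subunit, had 387 counts in siCont, against 273 in siERRG2 and 404 in siERRG3. The siERRG2 library stood below the other two, with a log2 difference of -0.52 from siCont (ratio interval 0.595 to 0.816). FANCE (chr6:35452339-35467106), which binds FANCD2, had 259, 207 and 341 counts. Its log2 difference was -0.34 in siERRG2 (0.655 to 0.952) and 0.37 in siERRG3 (1.10 to 1.53), so that siCont lay between the ESRRG siRNA libraries. FANCB, the X-linked subunit that holds the catalytic module together, had only 107, 147 and 110 counts and was higher in siERRG2 by 0.43 (1.05 to 1.76).

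The remaining core subunits were called in neither comparison with siCont. FANCL, the catalytic ligase subunit, had 593, 687 and 581 counts. FANCA had 941, 946 and 1013 counts, FANCC had 775, 734 and 795, and FANCF, the adaptor that links FANCM to the rest, had 962, 1058 and 837. FANCM, a DNA translocase, had 273, 297 and 253.

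FANCD2 and FANCI form the ID2 clamp that the core complex tags, and they differed in the siERRG3 library. FANCD2 (chr3:9917163-10106791) had 1266 counts in siCont, against 1133 in siERRG2 and 938 in siERRG3. The ESRRG siRNA libraries were both below siCont, by a log2 difference of -0.18 in siERRG2 (ratio interval 0.816 to 0.959), within 1.2-fold, and -0.46 in siERRG3 (0.669 to 0.793). FANCI had 3732, 3435 and 3783 counts and was called in neither. BRIP1, the helicase that binds BRCA1, had 685, 642 and 613 counts, and SLX4, the scaffold of crosslink nucleases, had 384, 345 and 339. Neither of these passed 1.2-fold, and the group's median was -0.15 in siERRG2 and -0.19 in siERRG3.

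BLM, RMI1 and RMI2 belong to the complex that dissolves joined DNA molecules, and 2 of them were lower in siERRG3 (all genes 25.1%). RMI2 (chr16:11342188-11351763), a small subunit that stabilises the complex, had 304 counts in siCont, against 245 in siERRG2 and 204 in siERRG3. Its log2 difference was -0.33 in siERRG2 (ratio interval 0.671 to 0.946) and -0.59 in siERRG3 (0.550 to 0.791), and it was called lower in each library against the shared siCont. The helicase BLM had 593, 577 and 451 counts and was called lower in siERRG3. RMI1, the remaining subunit, had 671, 762 and 770 counts, above siCont in both libraries and within 1.2-fold.

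Checkpoint kinases and their activators were all within 1.2-fold of siCont in siERRG2 (all genes 19.2% lower and 16.4% higher). In siERRG3, 1 of the 7 was lower and 1 was higher (all genes 25.1% and 23.2%). ATR (chr3:142410516-142578826), the kinase of stalled forks, had 974 counts in siCont, against 986 in siERRG2 and 622 in siERRG3. The siERRG3 library stood alone, with a log2 difference of -0.67 (ratio interval 0.567 to 0.695), against 0.00 in siERRG2 (0.915 to 1.09). This was the largest called difference from siCont of the 39 genes in either library. ATRIP, the protein that brings ATR to single-stranded DNA, did not follow it, with 503, 604 and 604 counts, within 1.2-fold in both. TOPBP1, an activator of ATR, had 2430, 2499 and 2352 counts and was called in neither.

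CLSPN (claspin, chr1:35719791-35770238), the adaptor through which ATR activates CHK1, had 1735 counts in siCont, against 1539 in siERRG2 and 2240 in siERRG3. It was higher in siERRG3 by 0.34 on the log2 scale (ratio interval 1.19 to 1.35), the opposite direction to ATR in the same library. CHEK1 (chr11:125624573-125676256), which encodes CHK1, had 1597, 1850 and 1766 counts. Its log2 differences of 0.20 in siERRG2 (1.07 to 1.23) and 0.12 in siERRG3 (1.02 to 1.16) were beyond counting error and within 1.2-fold. CHEK2, the effector kinase of ATM, had 1077, 1043 and 1098 counts and differed little between the libraries. PARP1, with 11306, 11003 and 11266 counts, was the most precisely counted gene here, with log2 differences of -0.06 (0.937 to 0.988) and -0.03 (0.955 to 1.01).

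ATM (chr11:108118595-108422809), the kinase of broken ends, gave different answers in the deposited quantities. Its counts were 1212 in siCont, against 1172 in siERRG2 and 1064 in siERRG3, with log2 differences of -0.06 (ratio interval 0.881 to 1.04) and -0.21 (0.794 to 0.938). Its FPKM were 5.83, 7.69 and 4.46, and on the scale of log2(FPKM + 0.1) the differences were 0.39 and -0.38. The transcript length implied by count and FPKM was 10467 bases in siCont, against 7661 in siERRG2 and 11918 in siERRG3. Counts and FPKM of ATM were thus not tied by a fixed length. ATM was the 1 gene of 39 (2.56%) whose implied length differed by more than 1.2 times between libraries, against 2.16% of the 11369 genes averaging 50 or more counts. For ATR the implied length was 8298, 8285 and 8309 bases, and its FPKM of 5.91, 5.98 and 3.74 followed its counts. NBN lay between these, at 3915, 4518 and 4195 bases.

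**Figure D4:**
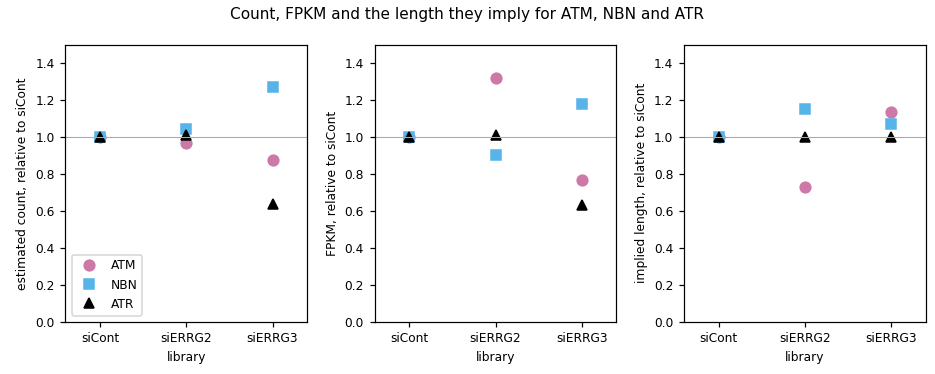
Estimated count, FPKM and the transcript length they imply for ATM, NBN and ATR in each library, relative to siCont. The ATM count stays near 1 in siERRG2 while its FPKM lies above 1 (7.69 against 5.83) and its implied length below 1, whereas the ATR length stays at 1 throughout.

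The ESRRG siRNA libraries differed from each other in 18 of the 39 genes, although ESRRG itself differed between them by a log2 value of 0.12 (ratio interval 0.896 to 1.31). In siERRG3 against siERRG2, 9 genes were lower (23.1%; all genes 25.3%) and 9 were higher (23.1%; all genes 26.4%). With the interval rule, 8 were lower (20.5%; all genes 20.4%) and 9 were higher (23.1%; all genes 19.6%), and among the genes averaging 50 or more counts 25% were lower and 22.1% were higher past 1.2-fold. These shares were near the background, and the median log2 difference was -0.033 against 0.014 over all genes. RAD51B was the farthest below, at -0.84 (0.419 to 0.723), followed by ATR at -0.67 (0.567 to 0.694), RAD51AP1 at -0.47 (0.631 to 0.826), BRCA2 at -0.45 (0.618 to 0.862) and FANCB at -0.42 (0.576 to 0.959). FANCE was the farthest above, at 0.71 (1.37 to 1.96). The FANCG, CLSPN and RAD51D differences were 0.55 (1.26 to 1.72), 0.53 (1.36 to 1.55) and 0.52 (1.22 to 1.69), and that of RBBP8 was 0.35 (1.21 to 1.35). BRCA1 at 0.28 (1.12 to 1.32) and FANCD2 at -0.28 (0.754 to 0.899) were also past 1.2-fold, while CHEK1 at -0.07 (0.889 to 1.01), ATM at -0.15 (0.830 to 0.982) and PARP1 at 0.03 (0.992 to 1.05) were not. Of the core complex, whose subunits work as 1 machine, 2 were lower and 2 higher in this comparison.

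**Figure D5:**
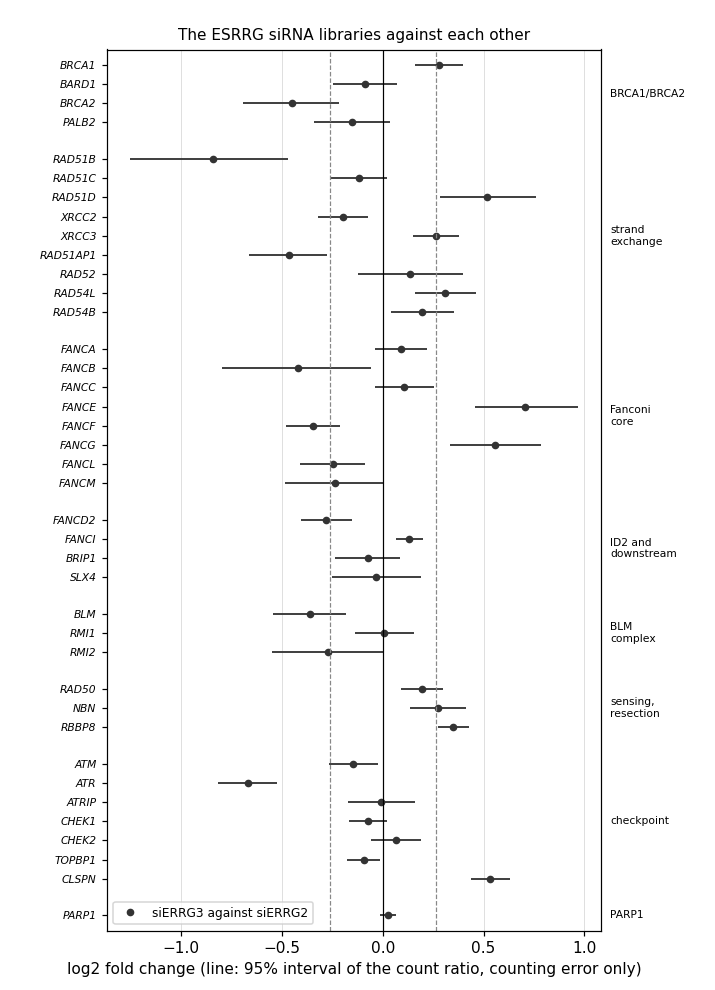
Log2 difference of siERRG3 from siERRG2 for each of the 39 genes, with lines for the 95% interval of the count ratio (counting error only) and dashed lines at 1.2-fold. RAD51B at -0.84 and ATR at -0.67 lie farthest to the left and FANCE at 0.71 farthest to the right, while PARP1 lies at 0.03.

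Other genes of the same pathways, 81 in a list of nucleases, Fanconi partners, checkpoint proteins and end joining factors, included larger single differences than any of the 39 showed against siCont. In siERRG2 8 were lower and 6 higher than in siCont (all genes 19.2% and 16.4%), and in siERRG3 14 were lower and 23 higher (all genes 25.1% and 23.2%), with medians of 0.015 and 0.026. Of 24 checkpoint genes, 3 were lower and 1 was higher in siERRG2 (all genes 19.2% and 16.4%). In siERRG3, 6 of the 24 were lower and 8 higher (all genes 25.1% and 23.2%). RAD17, the loader of the clamp that activates ATR, had 670 counts in siCont, against 634 in siERRG2 and 263 in siERRG3. Its log2 difference was -1.37 in siERRG3 (ratio interval 0.333 to 0.446). TIMELESS, a fork protection protein, had 2388, 1255 and 1858 counts and was lower in both libraries. Its log2 difference was -0.94 in siERRG2 (0.485 to 0.557) and -0.39 in siERRG3 (0.720 to 0.813). Its partner TIPIN had 658, 623 and 1071 counts and was higher in siERRG3 by 0.68 (1.45 to 1.77). Of the genes named, RAD17 and ATR, which act in the same signalling step, and TIMELESS were lower in siERRG3. CLSPN, TIPIN and the clamp subunit RAD9A, with 484, 548 and 785 counts, were higher.

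Of 14 further Fanconi pathway genes, 1 was lower and 0 were higher in siERRG2 (all genes 19.2% and 16.4%). In siERRG3, 0 were lower and 5 were higher (all genes 25.1% and 23.2%). Among the 5 were CENPX, at 1571, 1753 and 2348 counts, and CENPS, at 337, 316 and 500, the histone fold pair that binds FANCM. Of 26 nuclease and recombination genes, 3 were lower and 0 higher in siERRG2 (all genes 19.2% and 16.4%). In siERRG3, 5 of the 26 were lower and 6 higher (all genes 25.1% and 23.2%). WRN, a helicase related to BLM, had 768, 593 and 521 counts, a log2 difference of -0.39 in siERRG2 and -0.58 in siERRG3. RPA2, a subunit of the protein that coats single-stranded DNA, had 3822, 3069 and 5584, on opposite sides of siCont in the ESRRG siRNA libraries, as FANCE was. Of 17 end joining genes, 1 was lower and 5 were higher in siERRG2 (all genes 19.2% and 16.4%), 4 of the 5 with an interval above 1. Among these were XRCC4, at 107, 162 and 141 counts, and LIG4, its partner in sealing ends, at 612, 866 and 657. In siERRG3, 3 of the 17 were lower and 4 higher (all genes 25.1% and 23.2%).

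Replication and proliferation genes differed in both directions. Of 24 such genes, 3 were lower and 2 higher in siERRG2 (all genes 19.2% and 16.4%), with a median of -0.077. In siERRG3 9 were lower and 2 higher (all genes 25.1% and 23.2%), with 13 below and 11 above 0 and a median of -0.10. MCM3, a subunit of the replicative helicase, had 5670 counts in siCont, against 5161 in siERRG2 and 2684 in siERRG3. CCNA2, the S phase cyclin, had 2313, 2149 and 1182, and GINS3 had 966, 1086 and 537, a log2 difference of -0.87 in siERRG3. The 2 higher genes were CCNE1, the cyclin of S phase entry, with 630, 791 and 1079 counts, and CDT1, a licensing factor, with 2008, 2446 and 2831, while PCNA, the sliding clamp, had 6295, 6518 and 6514. The part of these genes in the lower counts of ATR, RAD51AP1, FANCD2, BRCA2, BLM and RMI2 in siERRG3 was not tested.

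Transcript length was set beside the differences as a description. Across the 39, Pearson's r between implied length and log2 difference was -0.013 in siERRG2 and -0.12 in siERRG3, and across the 11369 genes averaging 50 or more counts it was -0.081 and -0.24. Parted at 3542 bases, the 19 longer of the 39 genes had a median of -0.071 in siERRG3 and the 20 shorter 0.060, against -0.11 and 0.058 in the larger set. In siERRG2 the 19 longer had a median of -0.056 and the 20 shorter 0.039, against -0.016 and 0.019 in the larger set. The shorter genes were thus not lower as a group in siERRG2. All 4 genes called lower in siERRG2 (RAD54L, FANCE, FANCG and RMI2) were nevertheless among the 20 shorter. The larger set did not share this, with 916 of 6519 shorter and 841 of 4850 longer genes lower in siERRG2. These are descriptions across genes of the same libraries, and genes are not independent replicates.

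The estimated counts limit some of these values. Of the 39 genes, 26 had counts that were not whole numbers, and how they arose is not given in the sources used here. In RefSeq, 16 of the 39 overlapped another protein-coding gene, among them XRCC3 with KLC1 (2927, 2609 and 2873 counts), RAD54L with LRRC41 (1949, 2260 and 1996), RMI1 with HNRNPK (15559, 14877 and 14049) and ATRIP with TREX1 (536, 542 and 699). RAD52, with 204, 235 and 260 counts, overlapped ERC1 (1353, 1272 and 965). How the reads were counted by strand is not given in the sources used here. The division of reads between RAD54L and LRRC41, for which siERRG2 lay on opposite sides of siCont, was therefore not tested. Nor was that between RAD52 and ERC1 or between RMI1 and HNRNPK, for which both siERRG2 and siERRG3 lay on opposite sides of siCont. For XRCC3 and KLC1 siERRG3 did so. The division of reads in the other overlapping pairs was not tested either.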

How the data were processed

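RNA of H128 cells was sequenced in 3 libraries (siCont, siERRG2 and siERRG3, 1 per condition), grouped by the titles in the labels. According to the methods, BWA and Bowtie 2 placed the reads on GRCh37/hg19. The submitters' processing notes list TopHat2, HTSeq and DESeq2 with GRCh38, hg19 and hg38, and the table carries GRCh38 coordinates. The counting program is not given in the sources used here. The authors deposited estimated counts (expected counts) per gene, not normalized, and an expression value that behaves as FPKM although its unit is not named. The authors' deposited log2 ratios, the deposited p-values of their Poisson test and the adjusted score the authors derived from them, which is above 1 for some genes, were not used.

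Estimated counts were rounded to whole numbers. A gene was kept where any library reached 10 counts (14031 genes), and library sizes were scaled by TMM (edgeR 4.0.16, R 4.3.3). Differences are of log2 CPM with a prior count of 2, which draws low counts towards 0. A gene was called past 1.2-fold. Count ratios carry 95% intervals by the exact binomial method of Clopper and Pearson (R 4.3.3), which cover counting error only. PCR duplicates are not independent molecules, so true intervals are wider. No p-value was computed, since 1 library per condition leaves no residual spread. Implied length, computed in Python 3.11.15, is the count divided by FPKM and by the library's total. The scaling, differences and intervals were tested on simulated whole counts with counting error only. The other steps were not tested in this way.

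The 39 genes and the other lists were chosen with earlier results of these data known. Fold changes with intervals are given for ESRRG, for up to 5 lower and 5 higher of the 39 genes per comparison past 1.2-fold with an interval not including 1, and for BRCA1, BRCA2, ATM, ATR, CHEK1, FANCD2 and PARP1. Of each role of the other lists, up to 3 genes with the largest such difference could be named. CDT1 and PCNA were named outside this rule. Overlapping genes were named after their values were seen. The alternatives were scaling by total counts or by DESeq2 1.42.0 size factors, log2(FPKM + 0.1), a prior count of 0.5, dropping the filter, requiring an average of 50 counts, 1.5-fold and 2-fold limits, and the interval rule. Promoter windows and gene overlaps were taken from RefSeq (GRCh38.p14). Of 2 neuroendocrine markers listed, no value is given, as they were not analysed here.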

Additional observations from a re-analysis of the deposited data

How the results depend on the processing

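With 1 library per condition, no difference could be set against replicate spread, and depth limits genes such as FANCB and RAD51B, whose counts of 86 to 155 give wide intervals. Under the other scalings, values, prior count and filters, 4 genes were lower and 3 to 4 higher in siERRG2 against siCont, 7 to 8 lower and 7 to 9 higher in siERRG3 against siCont, and 9 to 10 lower and 8 to 9 higher in siERRG3 against siERRG2. The limit on the fold set the counts. At 1.5-fold, 0 genes were lower and 0 higher in siERRG2 against siCont, 3 lower and 0 higher in siERRG3 against siCont (ATR, RAD51AP1 and RMI2), and 2 lower (RAD51B and ATR) and 1 higher (FANCE) in siERRG3 against siERRG2. At 2-fold, 0 genes were lower and 0 higher in each of the 3 comparisons. The shares of all genes past 1.5-fold and 2-fold are not given here, so these counts cannot be set against a background. The median of the 39 genes changed sign, to 0.0048 with total counts, 0.00029 with DESeq2 size factors and 0.017 with FPKM in siERRG2 and to 0.0084 with total counts and 0.0099 with FPKM in siERRG3, and stayed below 0 between the ESRRG siRNA libraries. With FPKM NBN was no longer past 1.2-fold in siERRG3 against siCont (0.23). For named genes, a recomputed difference was set against the gene's own interval of the count ratio. This was a loose check, as the alternative scalings and prior count shifted these genes only slightly. A larger shift could also stay inside, as for BRCA1 in siERRG3 against siCont, from 0.28 to 0.39 with FPKM. Of the named genes, 169 of 172 recomputed differences stayed inside that interval. The other 3 were of ATM with FPKM in place of counts, at 0.39 for siERRG2 and -0.38 for siERRG3 against siCont and -0.77 between them, where the sign in siERRG2 differed from that of the counts. The implied length of ATM moved with these values. No paired analysis was possible because each condition had 1 library.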
